A study of Mus musculus with 4 samples.

Results

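Chondrocyte-like cells were selected from a droplet-based single-cell RNA sequencing experiment on fetal mouse leg muscle. They were the cells in which cartilage collagen transcripts were abundant. A cell entered the group when at least 4 of 7 cartilage genes (*Col2a1*, *Col9a1*, *Col9a2*, *Col9a3*, *Cnmd*, *Hapln1* and *Ucma*) were detected, *Col2a1* had at least 5 UMIs, and *Myog* and *Cdh5* had 0. A UMI (unique molecular identifier) stands for 1 captured transcript. The genes of this rule therefore chose the cells and are given below as description only, with no test. The rule found 1438 cells among the 36969 that passed the quality filter. They numbered 282 in WT replicate 1, 462 in WT replicate 2, 78 and 616 in KO replicates 1 and 2.

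The study compared wild-type (WT) fetuses with fetuses lacking *SYISL* (KO), a long non-coding RNA. The fetuses came from heterozygous dams late in gestation (E18.5) and were genotyped from their tails, and their leg muscles were dissociated with trypsin and DNase. Each genotype had 2 libraries. The WT and KO fetuses are described as littermates, and leg muscles were taken from each fetus separately. Whether a library held a single fetus is not stated outright in the sources used here, so p-values measure the spread between libraries, which may be technical. A feature named *SYISL* was not among the rows analysed, so the targeted RNA could not be used to check the labels.

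The libraries held 9528 to 11670 deposited cells and 109653824 to 126257094 UMIs. Chondrocyte-like cells had a median of 10429.5, 10132.5, 8691 and 8899.5 UMIs per cell in WT replicates 1 and 2 and KO replicates 1 and 2, and their summed depth was 743533 UMIs for the 78 cells of KO replicate 1 and 3144870 to 6191046 UMIs elsewhere. KO replicate 1 is therefore the least precise of the 4 libraries. No cell barcode was shared between libraries among the chondrocyte-like cells, and 15 to 27 were shared per pair of libraries among all kept cells. KO replicate 2 stood apart in sex-linked transcripts. Its chondrocyte-like cells held 8561 *Xist* UMIs and 8 UMIs of 4 Y-linked genes, against 0 or 1 *Xist* UMI and 261 to 1762 Y-linked UMIs in the other three libraries.

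Cartilage is built by chondrocytes, which secrete a network of type II, IX and XI collagen filled with the proteoglycan aggrecan. In the fetal limb, growth cartilage cells pass from resting and proliferating stages to hypertrophy and are replaced by bone, whereas cells at the joint surface form permanent articular cartilage and secrete lubricin, the product of *Prg4*. *Ucma* encodes a small secreted protein of immature growth cartilage.

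Cells at the edge of the rule were few. Among members, 23 held exactly 5 *Col2a1* UMIs, and 40 cells outside held exactly 4. Exactly 4 of the 7 genes were detected in 83 members, whose median *Col2a1* count was 9, and 89 cells with enough *Col2a1* had only 3 and stayed outside, with a median of 7. Most members were far from that edge, since 844 held all 7 genes and 376 held 6. *Myog* turned away 75 cells and *Cdh5* 68. Outside the group, 10.4% of kept cells had a *Col2a1* UMI, with a lowest share of 3.23% (KO replicate 1) and a highest of 15.7% (KO replicate 2).

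The genes that led these cells over the other kept cells of the same library were cartilage matrix genes. Levels are CPM, the share of a gene among the UMIs summed over the cells of a library, scaled to 1000000. *Col2a1*, the main collagen of cartilage (chr15:97975602-98004695, GRCm38, minus strand), had levels of 14895, 9925, 9994 and 10858 CPM in WT replicates 1 and 2 and KO replicates 1 and 2. In other kept cells it stood at 37.8, 54.3, 10.5 and 114 CPM. Every library separated the groups of cells by a wide margin, and the ratio was smallest in the second KO library, where other cells held the most *Col2a1*.

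By the lowest ratio among the 4 libraries, the first gene was *Matn1*, which encodes the cartilage filament protein matrilin-1 and was not part of the rule. Its members-to-others ratio was 387, 322, 892 and 113. *Snorc*, a transmembrane proteoglycan of cartilage, had ratios of 264, 307, 827 and 107. Other genes outside the rule among the first 15 were *Matn3*, *Cytl1*, *Mia*, *Scrg1*, *Col11a2* and *Comp*, with lowest ratios between 43.4 for *Comp* and 68.6 for *Matn3*. *Cytl1*, a secreted cytokine-like protein known from cartilage, ran from 1316 to 2258 CPM in members and from 6.88 to 24.6 CPM in other cells. The marker genes given for these cells, *Col2a1*, *Col9a1*, *Col9a3*, *Cytl1* and *Ucma*, were all among these 15, and 4 of them had also chosen the cells.

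**Figure D1:**
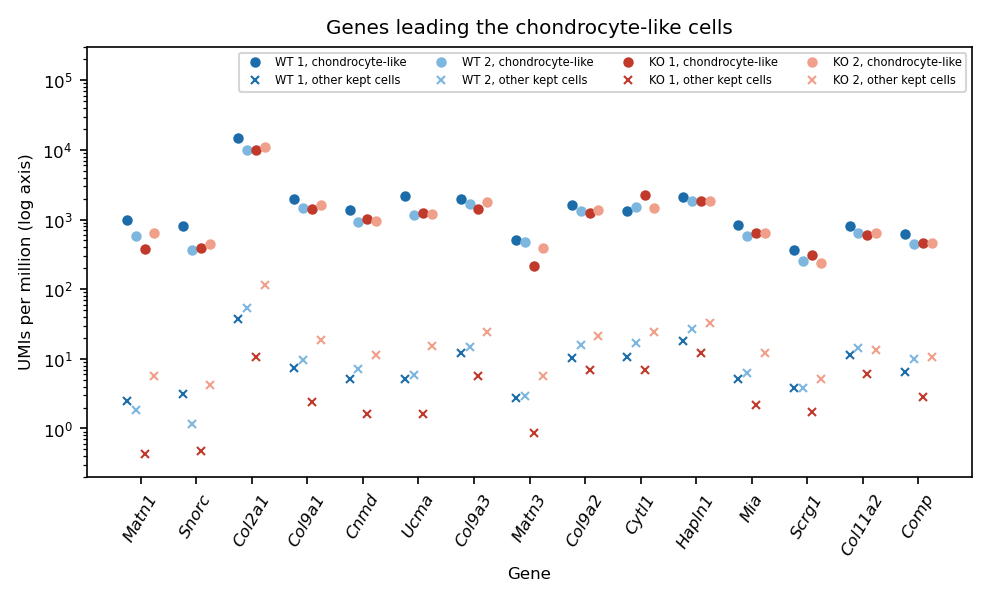
CPM (log axis) of the 15 leading genes in chondrocyte-like cells (circles) and in the other kept cells (crosses) of each library, by colour. In each gene the 4 circles lie above the 4 crosses, and *Matn1* has ratios from 113 to 892.

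Tenocyte-like cells were the nearest group for some of these genes. They were gated by *Tnmd* and *Scx*, outside the chondrocyte-like cells, and numbered 2281. *Col2a1* averaged 134 CPM over the 4 libraries in them, against 16.7 CPM in cells gated as fibro-adipogenic and 7.57 CPM in cells gated as macrophages. *Col11a2*, a chain of type XI collagen, averaged 92.2 CPM in tenocyte-gated cells and 675 ± 89.6 CPM (SD, n = 4) in chondrocyte-like cells. *Matn1*, by contrast, averaged 2.25 CPM in tenocyte-gated cells, so the genes did not fall off in parallel.

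Markers of other cell types were mostly low, with KO replicate 2 as the exception. The 5 mast cell genes summed to 9.22, 51.4 and 12.1 CPM in WT replicates 1 and 2 and KO replicate 1, and to 484 CPM in KO replicate 2. The 7 erythroid genes summed to 35.3, 8.30, 4.03 and 510 CPM, and the 10 myogenic genes to 36.9, 22.6, 32.3 and 232 CPM. *Myog* was at 0 in every library, as the rule required.

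In KO replicate 2 these sums came from few cells. The highest single cell held 545 of 1105 UMIs of *Cma1*, a mast cell protease, 1069 of 1838 of the globin gene *Hbb-bs* and 532 of 1028 of the skeletal actin gene *Acta1*. The 7 endothelial genes summed to 13.4 to 29.6 CPM with *Cdh5* at 0 by the rule, the 7 macrophage genes to 5.38 to 37.0 CPM, and the 6 glial genes to 9.41 to 33.7 CPM. The 10 fibro-adipogenic genes (5596 to 8584 CPM, mostly collagens) and the 8 tenocyte genes (2604 to 3123 CPM, mostly *Fmod* and *Egr1*) are also used by skeletal connective tissue. The part of these transcripts in the results below was not tested, except where cells holding them were left out.

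Promoter sequences of 3 genes that separate the kinds of chondrocyte-like cells described next are printed because these genes carry the contrast between the states. *Ucma* defines the growth cartilage state, *Epyc*, which encodes the small leucine-rich proteoglycan epiphycan, was much higher there, and *Creb5*, which encodes a transcription factor of the CREB family, was higher in the articular state. Each is 250 bases before to 50 bases after a transcription start, from RefSeq (GRCm38.p6), 5′ to 3′ on the plus strand. Capitals mark the only match in each window among 4 motifs searched on both strands. These were TGANTCA for AP-1, the cAMP response element (CRE) TGACGTCA, the letters ACAATGG for SOX factors, and TATAAA for the TATA box. The windows are chr2:4975872-4976171 for *Ucma*, chr10:97643818-97644117 for *Epyc* and chr6:53287053-53287352 for *Creb5*.
Ucma: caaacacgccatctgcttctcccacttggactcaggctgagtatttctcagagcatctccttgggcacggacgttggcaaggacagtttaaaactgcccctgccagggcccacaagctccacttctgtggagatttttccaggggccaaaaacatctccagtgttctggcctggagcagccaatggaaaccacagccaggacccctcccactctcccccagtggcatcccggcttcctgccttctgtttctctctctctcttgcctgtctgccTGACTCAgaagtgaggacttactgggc
Epyc: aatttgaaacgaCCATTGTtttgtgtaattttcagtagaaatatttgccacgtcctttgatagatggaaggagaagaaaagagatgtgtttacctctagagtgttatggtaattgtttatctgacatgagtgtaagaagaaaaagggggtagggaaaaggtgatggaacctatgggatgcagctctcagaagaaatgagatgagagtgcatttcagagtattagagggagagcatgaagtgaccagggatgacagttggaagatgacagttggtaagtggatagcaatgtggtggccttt
Creb5: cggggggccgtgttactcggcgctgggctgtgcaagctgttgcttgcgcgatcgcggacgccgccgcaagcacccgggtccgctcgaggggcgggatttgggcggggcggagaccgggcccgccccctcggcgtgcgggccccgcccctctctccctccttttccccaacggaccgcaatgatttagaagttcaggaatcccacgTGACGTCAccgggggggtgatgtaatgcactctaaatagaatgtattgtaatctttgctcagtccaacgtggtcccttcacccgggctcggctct
The *Ucma* window held an AP-1 match that began at base 274, just past the start site. The *Epyc* window held a SOX match on the minus strand, read here as CCATTGT, and the *Creb5* window printed held a CRE match. A second *Creb5* window in the table, at chr6:53573124-53573423, held no CRE match but an AP-1 match, TGACTCA, and a second *Epyc* window, at chr10:97646853-97647152, held none of the 4. The windows of *Matn1*, *Cytl1* and *Cilp* held none of the 4. A match describes letters and is not evidence of binding.

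Of all 27025 genes with a window, 8.97% held the AP-1 letters and 5.67% of the 7782 with a window that were tested below did. Among tested genes the share was 10.1% of the 493 that were higher in the articular state and 7.76% of the 490 that were higher in the growth cartilage state. TATAAA was found in 8.53% of tested genes, and in 13.4% and 13.1% of these groups. The SOX letters were in 2.24% of tested genes, 1.42% and 1.63% of the groups, and the CRE letters in 3.98%, 3.25% and 2.86%. No motif was searched with a view to a test, and windows were not matched for base composition.

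The chondrocyte-like cells held at least 2 kinds of cell by *Prg4* (chr1:150449412-150466165, minus strand) and *Ucma* (chr2:4976122-4985748, plus strand). Cells with at least 2 *Prg4* UMIs and at most 1 *Ucma* UMI were called Prg4-type, and the converse Ucma-type. Of 1438 cells, 295 (20.5%) were Prg4-type, 539 (37.5%) Ucma-type, 226 (15.7%) held at least 2 UMIs of both, and 378 (26.3%) reached 2 UMIs of neither. The last are called cells with neither gene below, although they may hold 1 UMI of each. In WT replicate 1, 19 of the 54 such cells had a *Ucma* UMI.

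Prg4-type cells made up 18.1%, 21.2%, 21.8% and 20.9% of the chondrocyte-like cells in WT replicates 1 and 2 and KO replicates 1 and 2. Ucma-type cells made up 39.7%, 33.3%, 32.1% and 40.3%. Both states were present in each library. Cells with both genes ran from 11.9% (WT replicate 2) to 23.0% (WT replicate 1) and cells with neither from 19.1% (WT replicate 1) to 33.5% (WT replicate 2).

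A UMI of either gene was rare in cells that should lack it. Among chondrocyte-like cells, 46.1%, 40.3%, 47.4% and 42.5% had a *Prg4* UMI, and 73.4%, 56.5%, 71.8% and 65.6% had a *Ucma* UMI. In endothelial-gated cells, whose median depth was 9958 to 10747.5 UMIs, the shares were 0.314% to 2.19% for *Prg4* and 0.256% to 2.24% for *Ucma*. In macrophage-gated cells, with 11158 to 13439 UMIs, they were 0% to 0.844% and 0.450% to 5.20%. With each cell thinned to 2000 UMIs, the shares in chondrocyte-like cells were 26.0% to 35.9% for *Prg4* and 39.0% to 57.8% for *Ucma*, and at most 0.946% in these gates. Cells with fewer UMIs, 1 in WT replicate 2 and 4 in KO replicate 2, were left out of the thinned values.

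**Figure D2:**
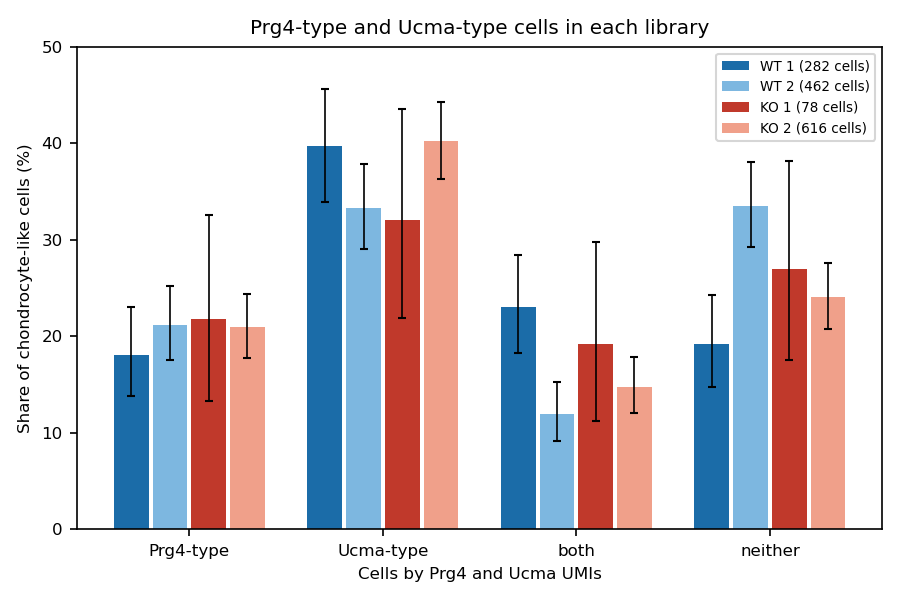
Share of chondrocyte-like cells (%) in each state by *Prg4* and *Ucma* UMIs, for the 4 libraries, with exact 95% binomial intervals that cover counting error only. Ucma-type cells are the most frequent state in WT replicate 1, KO replicate 1 and KO replicate 2, and the intervals are widest in KO replicate 1, which had 78 cells.

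Ucma-type cells were the deeper state in 3 of 4 libraries. Their median depth was 11503, 11387, 8498 and 9992 UMIs, against 8638, 9448, 10581 and 7641 in Prg4-type cells, so KO replicate 1 had the opposite order. Mitochondrial UMIs had medians of 1.47% to 2.74% across all states and libraries. Shares of cells called by a UMI count depend on such depth, and the tests below compare summed counts relative to each sum's total.

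Prg4-type and Ucma-type cells differed in a broad set of genes. UMIs were summed per library and state, and 9818 genes were tested with edgeR's quasi-likelihood test with the library as a block, leaving out *Prg4* and the 7 genes of the rule. With Benjamini-Hochberg adjustment over all of them, 1309 (13.3%) passed an adjusted p of 0.05, of which 645 (6.57%) were higher and 664 (6.76%) lower in Prg4-type cells. The median log2 difference of all tested genes was −0.01. In all 4 libraries, 524 of the higher and 559 of the lower genes had the same direction. The lists below overlap in some genes, and each count is to be read against these shares.

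Most cartilage matrix genes were lower in Prg4-type cells. Of 21 tested matrix proteins and proteoglycans, 14 fell, 4 rose and 3 did not pass, with a median log2 difference of −1.05. *Epyc* (chr10:97644068-97682454) stood at 2.15, 1.04, 0 and 0.890 CPM in Prg4-type cells of WT replicates 1 and 2 and KO replicates 1 and 2. In Ucma-type cells it stood at 306, 114, 47.9 and 135 CPM. The states did not overlap in any library, and *Epyc* had a log2 difference of −7.03 (SE 0.29, adjusted p = 1.2e-09). At these Prg4-type levels *Epyc* passed the filter on low counts only through Ucma-type cells, so its direction was fixed and this is description.

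*Matn1* (chr4:130944385-130955475) had 21.5, 12.5, 109.7 and 16.9 CPM in Prg4-type cells and 1914, 1400.0, 782 and 1237 CPM in Ucma-type cells. Its log2 difference was −5.90 (SE 0.33, adjusted p = 2.06e-08). KO replicate 1 showed the smallest gap. *Matn3*, *Pcolce2*, *Snorc* and *Chad* fell by 3.08, 3.36, 2.86 and 2.75 on the log2 scale. *Pcolce2* encodes an enhancer of procollagen processing and *Chad* the matrix protein chondroadherin.

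The collagens and aggrecan differed less. *Col11a1*, a chain of type XI collagen, had 3421, 3178, 3483 and 2958 CPM in Prg4-type cells and 6734, 5777, 4976 and 5131 CPM in Ucma-type cells. The log2 difference of *Col11a1* was −0.86 (SE 0.07, adjusted p = 1.46e-06). *Acan*, which encodes aggrecan, had 955, 841, 1022 and 825 CPM against 1846, 1612, 1425 and 1404 CPM, a log2 difference of −0.87 (SE 0.09). *Mia*, *Col11a2*, *Scrg1* and *Comp* had log2 differences of −1.79, −1.19, −1.05 and −0.86, and *Col27a1*, −0.59, lost its call without KO replicate 2 (adjusted p = 0.0577).

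The 4 matrix genes that rose in Prg4-type cells were *Cilp*, *Cytl1*, *Cilp2* and *Fmod*. *Cilp*, which encodes cartilage intermediate layer protein (chr9:65265180-65280605), had 327, 193, 179 and 211 CPM in Prg4-type cells and 2.14, 7.26, 16.0 and 5.21 CPM in Ucma-type cells. Its log2 difference was 5.24 (SE 0.26, adjusted p = 6.82e-09). At these Ucma-type levels *Cilp* passed the filter on low counts only through Prg4-type cells, so its direction was fixed and this is description. *Cytl1* had 3842, 2989, 2703 and 3239 CPM against 654, 1090.1, 1333 and 789 CPM, with a log2 difference of 1.72 (SE 0.16). *Cilp2* had a log2 difference of 1.76, and *Fmod*, which encodes fibromodulin, one of 0.28 that lost its call when WT replicate 1, WT replicate 2 or KO replicate 2 was left out (adjusted p = 0.137 to 0.161).

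Genes known from the joint surface were mostly higher in Prg4-type cells. Of 19 tested articular and joint genes, 11 rose, 1 fell (*Sfrp2*) and 7 did not pass, with a median log2 difference of 0.68. *Creb5* (chr6:53287270-53700376), a transcription factor gene known from articular cartilage, had 1575, 1671, 1080.2 and 1404 CPM in Prg4-type cells. In Ucma-type cells it had 281, 336, 706 and 353 CPM. All 4 libraries showed the same direction, and the log2 difference was 1.87 (SE 0.20, adjusted p = 8.5e-06).

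*Erg*, an ETS family transcription factor gene, was even across libraries. It had 419.5, 380.4, 381 and 362 CPM in Prg4-type cells and 166, 171, 184 and 155 CPM in Ucma-type cells, with a log2 difference of 1.14 (SE 0.10). *Osr2*, a zinc finger factor of the joint, and *Cd44*, the hyaluronan receptor, rose by 1.91 and 1.15. *Vit*, which encodes the matrix protein vitrin, rose by 4.49 over the libraries (SE 0.27). Its values were 273, 82.6, 5.78 and 124 CPM against 12.9, 3.63, 7.98 and 3.35 CPM, so KO replicate 1 alone did not share the direction. *Vit* also passed the filter on low counts only through Prg4-type cells, so its rise is description. *Gdf5*, a growth factor of joint formation, had a log2 difference of 1.05, and without WT replicate 2 or KO replicate 2 its adjusted p was 0.121 or 0.0787.

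Among chondrogenic transcription factors, *Sox9* and *Sox6* did not pass between the states, whereas *Sox5* did. *Sox9*, the main regulator of cartilage identity, had 789.6, 786, 907 and 779 CPM in Prg4-type cells and 731, 924, 738 and 699 CPM in Ucma-type cells. The log2 difference was −0.01 (SE 0.10, adjusted p = 0.982). The values overlapped, and the sign changed with the scaling. *Sox6*, a partner of *Sox9*, had a log2 difference of 0.16 (adjusted p = 0.268), and *Sox5*, a further partner, rose by 0.45 (adjusted p = 0.00136).

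Over the whole list of 12 tested factors, 3 rose, 4 fell and 5 did not pass. *Barx1*, a homeobox gene of the joint, rose by 1.50. *Runx2*, a driver of hypertrophy and bone formation, had 2.15, 15.7, 34.7 and 6.23 CPM against 87.2, 79.8, 59.9 and 75.5 CPM. *Runx2* fell by 2.92 on the log2 scale (SE 0.32), its relative *Runx3* by 2.88, and the forkhead gene *Foxa3* by 2.31. *Runx3* passed the filter on low counts only through Ucma-type cells, so its direction was fixed. *Trps1* rose by 0.48, a call lost without WT replicate 2 (adjusted p = 0.0718) or KO replicate 2 (adjusted p = 0.0577).

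Some transcripts of late growth cartilage, *Ihh*, *Panx3* and *Col10a1*, were not detected in Prg4-type cells. *Ihh*, the hedgehog signal of prehypertrophic cells, *Panx3*, a channel gene of the same stage, and *Col10a1*, the collagen of hypertrophic cells, had 0 UMIs in 295 Prg4-type cells, which allows a share of up to 1.02% of cells with a UMI. In 539 Ucma-type cells *Ihh* had 57 UMIs in 16 cells, *Panx3* 86 in 21 cells and *Col10a1* 125 in 3 cells. Set against a floor of 3 UMIs over all Prg4-type cells, *Ihh* was at least 8.24-fold, *Panx3* at least 12.4-fold and *Col10a1* at least 18.1-fold higher in Ucma-type cells. Such cells were few, and single libraries set the bounds. For *Ihh*, 32 of the 57 UMIs came from WT replicate 2, 18 of them from 1 cell, and the bound was 3.38-fold without that library. For *Panx3* it was 7.44-fold without WT replicate 2. For *Col10a1*, 69 of the 125 UMIs came from 1 cell of KO replicate 2, WT replicate 1 had none, and the bound was 8.32-fold without KO replicate 2.

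These 3 genes, at 0 UMIs in Prg4-type cells, passed the filter on low counts only through Ucma-type cells. Their direction was therefore fixed and they are not counted in the lists. The same limit holds for other genes low in 1 state, which stay in the counts. Examples are *Epyc*, *Prune2*, *F3*, *C1qtnf3*, *Srgn*, *Cilp* and *Vit*. Of the 5 other tested prehypertrophic and hypertrophic genes, 3 fell (*Pth1r*, *Runx3* and *Mef2c*), 1 rose (*Spp1*) and 1 did not pass. *Spp1*, which encodes osteopontin, rested in part on single cells, since 1 Prg4-type cell held 361 of its 362 UMIs in KO replicate 1. In all, *Spp1* had 641 UMIs in 40 of the 295 Prg4-type cells and 678 in 51 of the 539 Ucma-type cells. *Pth1r*, the receptor for the PTHrP signal that holds back hypertrophy, had 4.30, 7.31, 0 and 11.6 CPM against 40.7, 38.9, 67.8 and 33.1 CPM. *Pth1r* fell by 2.33 on the log2 scale (SE 0.33, adjusted p = 0.000149). *Pth1r* and *Runx3* likewise passed the filter on low counts only through Ucma-type cells, so their fall is description.

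Of 13 tested genes of resting and proliferating growth cartilage, 8 fell and 2 rose (*Gas1* and *Cytl1*), with a median of −1.24. *Gas1*, which encodes a hedgehog co-receptor, rose by 2.00 on the log2 scale. It had 876, 750.3, 225 and 569.6 CPM against 144, 152, 211 and 131 CPM, with little difference in KO replicate 1.

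**Figure D3:**
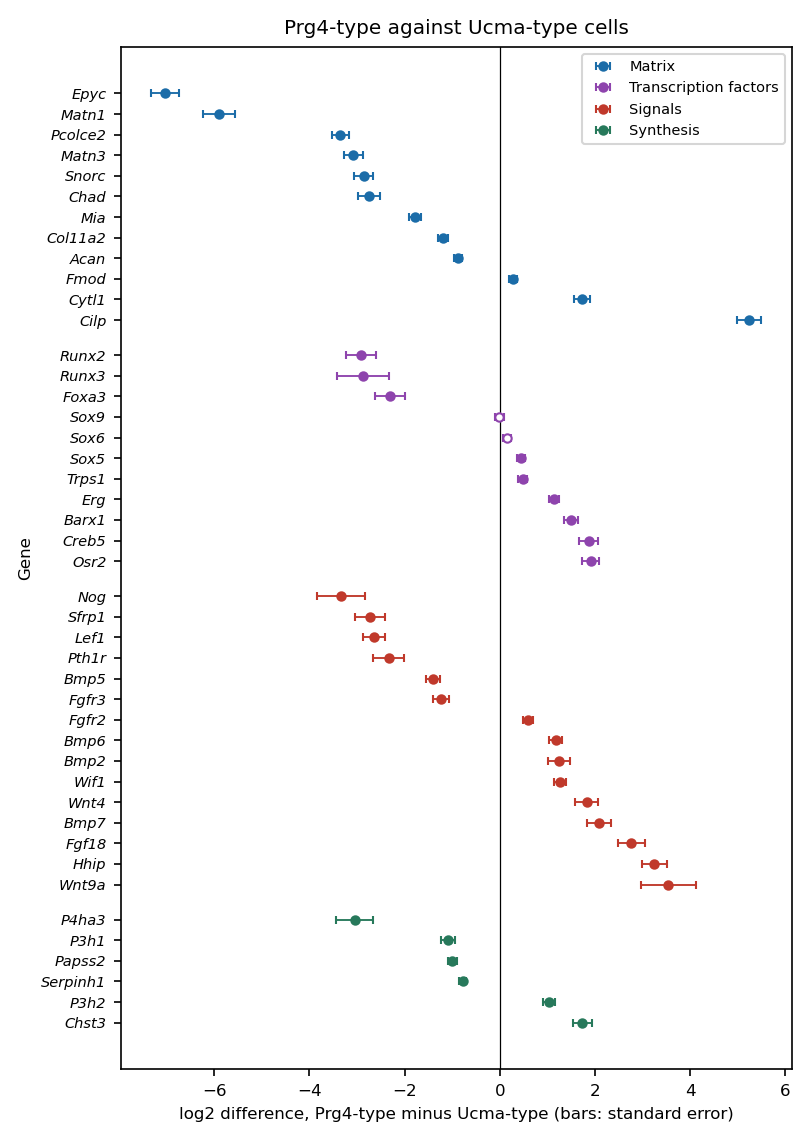
Log2 difference between Prg4-type and Ucma-type cells (x axis; positive is higher in Prg4-type) with its standard error for genes in 4 roles, from edgeR over the 4 libraries. Filled points passed an adjusted p of 0.05 and open points, *Sox9* and *Sox6*, did not. *Epyc* is lowest at −7.03 and *Cilp* highest at 5.24. These and some other genes shown passed the filter on low counts only through the state where they were high.

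Ligands, receptors and inhibitors of the main cartilage signals differed in both directions. In the hedgehog and PTHrP loop, leaving out *Ihh* for the reason given above, 2 of 8 tested genes rose, 1 fell and 5 did not pass. *Hhip*, a hedgehog target and antagonist, had 252, 262, 17.3 and 228 CPM in Prg4-type cells and 12.9, 20.2, 27.9 and 31.6 CPM in Ucma-type cells. The log2 difference of *Hhip* was 3.25 (SE 0.26, adjusted p = 1.03e-06), although KO replicate 1 had the opposite direction. *Gli1*, a hedgehog target factor, had a log2 difference of 1.24, with an adjusted p of 0.147 without WT replicate 2 and 0.175 without KO replicate 2.

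In the FGF family, *Fgf18*, a ligand that acts on cartilage, had 83.9, 54.3, 46.2 and 55.2 CPM against 5.00, 11.9, 16.0 and 6.70 CPM. It rose by 2.76 (SE 0.28), as did the receptor gene *Fgfr2* by 0.59. *Fgfr3*, the receptor that restrains growth cartilage, had 40.9, 50.2, 23.1 and 38.3 CPM against 126, 96.4, 79.8 and 77.0 CPM and fell by 1.24 (SE 0.17). The second member that fell was *Fgfrl1*, so 2 of 6 moved each way. The median of the 6 was 0.09, and its sign turned with thinned cells (−0.29) and without KO replicate 2 (−0.07).

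Of 22 tested BMP and TGF-beta genes, 6 rose, 5 fell and 11 did not pass, with a median of 0.02. *Bmp6* and *Bmp7* rose by 1.17 and 2.09, and *Bmp5* fell by 1.41. *Bmp2* had 411, 339, 162 and 380.0 CPM against 147, 117, 287 and 107 CPM, higher in Prg4-type cells of 3 libraries. Its log2 difference was 1.24 (adjusted p = 0.00205), with an adjusted p of 0.374 under DESeq2 and 0.0962 without KO replicate 2. The BMP antagonist genes *Nog* and *Grem1* fell by 3.34 and 2.24. Both passed the filter on low counts only through Ucma-type cells, so their direction was fixed.

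Wnt genes were split as well, with 5 of 13 higher, 5 lower and 3 not passing. *Wif1*, a secreted Wnt inhibitor, had 568, 650.0, 531 and 506 CPM against 179, 234, 188 and 284 CPM and rose by 1.26 (SE 0.13). The ligand genes *Wnt4* and *Wnt9a* rose by 1.83 and 3.54. *Wnt9a* passed the filter on low counts only through Prg4-type cells, so its direction was fixed. *Lef1*, a nuclear effector of Wnt signalling, had 10.8, 25.1, 17.3 and 8.90 CPM against 112, 91.7, 172 and 67.7 CPM and fell by 2.64 (SE 0.23). *Sfrp1*, a further secreted inhibitor, fell by 2.72. The median of the list, 0.65, had no stable sign. It was −0.02 without the library block and −0.55 with thinned cells, over 8 genes.

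About as many genes for building and secreting matrix fell in Prg4-type cells as did not pass, and few rose. Of 15 tested genes of sulfation and chondroitin sulfate synthesis, 8 fell, 1 rose and 6 did not pass, with a median of −0.47. *Papss2*, which makes the sulfate donor, had 267, 271, 248 and 239 CPM in Prg4-type cells and 535, 493, 423 and 479.5 CPM in Ucma-type cells. *Papss2* fell by 1.00 on the log2 scale (SE 0.10). The sulfotransferase gene *Chst3* was the member that rose, by 1.74 (SE 0.20), and was higher in Prg4-type cells of all 4 libraries. The sulfate transporter gene *Slc26a2* had a log2 difference of −0.67, with an adjusted p of 0.0771 without WT replicate 2 and 0.161 without KO replicate 2.

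Of 20 genes of collagen secretion and the endoplasmic reticulum, 10 fell, 1 rose and 9 did not pass, with a median of −0.37. *Serpinh1*, a collagen chaperone, had 1321, 1420.1, 1444 and 1435 CPM against 2438, 2429, 2159 and 2162 CPM. It fell by 0.78 on the log2 scale (SE 0.08), and its values were close among the libraries of each state. The collagen-modifying enzyme genes *P4ha3*, *P3h1* and *Plod2* fell by 3.05, 1.09 and 0.65. *P4ha3* passed the filter on low counts only through Ucma-type cells, so its direction was fixed. *P3h2*, a prolyl 3-hydroxylase, rose by 1.03 (SE 0.12).

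Metabolic genes moved little, and protease genes leaned lower without a call. Of 19 tested hypoxia and glycolysis genes, 17 did not pass, with a median of 0.01. *Epas1* and *Aldoa* were higher, by 0.95 and 0.39, and each lost its call without WT replicate 1, WT replicate 2 or KO replicate 2 (adjusted p = 0.107 to 0.291). None of 10 matrix proteases and inhibitors passed under edgeR, although 8 were below 0 (median −0.32). Of 28 cell cycle genes, 27 had a difference below 0 and 3 passed (*Birc5*, *Kif11* and *Ung*), with a median of −0.36. *Birc5* and *Kif11*, each at −0.48, lost their calls without WT replicate 2 (adjusted p = 0.242 and 0.217).

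Most immediate early and heat shock genes, which respond to dissociation, were lower in Prg4-type cells. Of 18 such genes, 13 fell, 1 rose and 4 did not pass, with a median of −0.51. *Fos* had 2173, 2145, 2379.8 and 1795 CPM against 3859, 3624, 3639 and 3241 CPM and fell by 0.84 (SE 0.07). *Jun* fell by 0.95 and *Socs3* by 1.62. *Dusp1*, the member that rose, had a log2 difference of 0.60 and an adjusted p of 0.0564 without KO replicate 2. These genes moved with the state beside the matrix genes, and their part in the other differences was not tested.

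Some markers of connective tissue outside cartilage were also lower in Prg4-type cells, and others were not. Of 9 tested fibro-adipogenic genes, 5 fell, 2 rose and 2 did not pass, and of 7 tenocyte genes, 3 fell, 1 rose and 3 did not pass. *Col1a1*, the collagen of bone, tendon and skin, had 1880.3, 2282, 1080.2 and 2778 CPM against 4248, 3589, 4737 and 4659 CPM and fell by 1.19 (SE 0.16). *Dcn* and *Tnmd* fell by 2.15 and 2.29, the latter with an adjusted p of 0.0525 under the looser cell filter. *Tnmd* rested on few cells, with 20 UMIs in 6 Prg4-type cells and 224 UMIs in 40 Ucma-type cells. In WT replicate 1, 1 Ucma-type cell held 51 of 71 UMIs, and in KO replicate 2, 1 Prg4-type cell held 15 of 17. Of the 6 tested osteoblast and perichondrium genes 4 fell and 1 rose, with a median of −0.93.

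Outside the lists, the 10 genes that rose most and the 10 that fell most, among those with at least 20 CPM and 1 direction in every library, spanned 2.35 to 4.33 and −5.31 to −2.56. *Srgn*, which encodes the proteoglycan serglycin, had 38.7, 35.5, 5.78 and 124 CPM in Prg4-type cells and 2.14, 3.63, 0 and 3.72 CPM in Ucma-type cells, a log2 difference of 4.33 (SE 0.31). Serglycin is also a product of mast cells, whose markers were high in KO replicate 2. Its gene passed the filter on low counts only through Prg4-type cells, so its direction was fixed. *Stc1*, a secreted glycoprotein hormone gene, rose by 3.43, and *Tesc* and *Fxyd5* by 2.75 and 2.35. Tight values marked *Fxyd5*, with 262, 196, 225 and 214 CPM against 44.3, 42.5, 23.9 and 42.0 CPM.

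*C1qtnf3* (chr15:10952332-10980150), which encodes a secreted C1q and TNF related protein of cartilage, fell most. It had 4.30, 5.22, 0 and 16.0 CPM in Prg4-type cells and 482, 468, 91.8 and 247 CPM in Ucma-type cells, a log2 difference of −5.31 (SE 0.29, adjusted p = 2.06e-08). *C1qtnf3* passed the filter on low counts only through Ucma-type cells, so its direction was fixed and this is description. *Prune2*, *Pdzrn4*, *F3*, *Slc8a3* and *Ntm* fell by 4.57, 3.72, 3.50, 3.40 and 3.33, and *Zfp385b*, *Calml3*, *Cd24a* and *Dhx58os* by 2.72, 2.67, 2.60 and 2.56. Some of these, such as *Prune2* and *F3* at 0 to 4.45 CPM in Prg4-type cells, passed the filter only through Ucma-type cells, so their direction was fixed. *Fam167a*, *Tmem108*, *Foxd1*, *Capg* and *Itih5* rose by 3.34, 2.88, 2.68, 2.63 and 2.50. *Msmp*, at 3.30, was the least even, with 4178, 887, 6279 and 304 CPM against 1037, 46.1, 47.9 and 57.7 CPM. It was higher still in the cells with at most 1 UMI each of *Prg4* and *Ucma*, at 11174, 4246, 20667 and 2368 CPM, and at 0 to 264 CPM in cells with both. Without cells holding markers of other types its difference was 1.07 (adjusted p = 0.325).

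The number of genes called depended on single libraries and on the tool. DESeq2 did not call *Fmod*, *Epas1*, *Aldoa*, *Birc5*, *Kif11*, *Gdf5*, *Gli1*, *Slc26a2* or *Bmp2* (adjusted p = 0.0709 to 0.374). With edgeR the number of genes called was 717 without WT replicate 2 and 697 without KO replicate 2. Of these, 693 and 663 were among the 1309. Of the 1309 genes, 1246 and 1243 were tested there and all of these kept their direction.

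Cells with both *Prg4* and *Ucma* lay mostly between the states and nearer to Prg4-type cells. Over the 1309 called genes, 1012 had a mean level between those of the states on the log2(CPM + 1) scale, 817 were nearer the Prg4-type and 492 nearer the Ucma-type level. With 0 at the Ucma-type and 1 at the Prg4-type level, the median position was 0.62. This is a description, since the genes were chosen for their difference between the states. *Creb5* stood at 0.86 and *Erg* at 0.87, near the Prg4-type level, and *Barx1* at 1.02. *Matn1* stood at 0.59, with 126, 122, 334 and 94.8 CPM. *Papss2* stood at 0.15 and *Scrg1* at −0.02, which is the Ucma-type level.

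Some cells with neither gene held transcripts of tendon, bone or hypertrophic cartilage, unevenly across libraries. *Runx2* had 542 UMIs in 110 of the 378 cells (29.1%), the same share as in Ucma-type cells (29.1%). *Tnmd*, a tendon gene, had 1000 UMIs in 54 cells, and *Scx*, a tendon factor gene, 188 in 85 cells. *Col10a1* had 477 UMIs in 8 cells, of which 1 cell of WT replicate 1 held 289, and the bone sialoprotein gene *Ibsp* had 290 UMIs in 5 cells, 281 of them in 2 cells of KO replicate 2. The 21 such cells of KO replicate 1 had 0 UMIs of *Tnmd*, *Col10a1* and *Ibsp*. *Ihh* and *Panx3* were found in 2.65% and 3.44% of cells with neither gene and in 2.97% and 3.90% of Ucma-type cells. *Col1a1* stood at 14354, 12258, 2647 and 9215 CPM, above the Prg4-type and Ucma-type cells of the same library except in KO replicate 1, where Ucma-type cells had 4737 CPM. *Sox9* was lowest in these cells, at 419.6, 561, 617 and 520.4 CPM. These cells also sat nearest to the rule's edge, with a median of 13 to 24 *Col2a1* UMIs against 31 to 217.5 in the other three states.

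**Figure D4:**
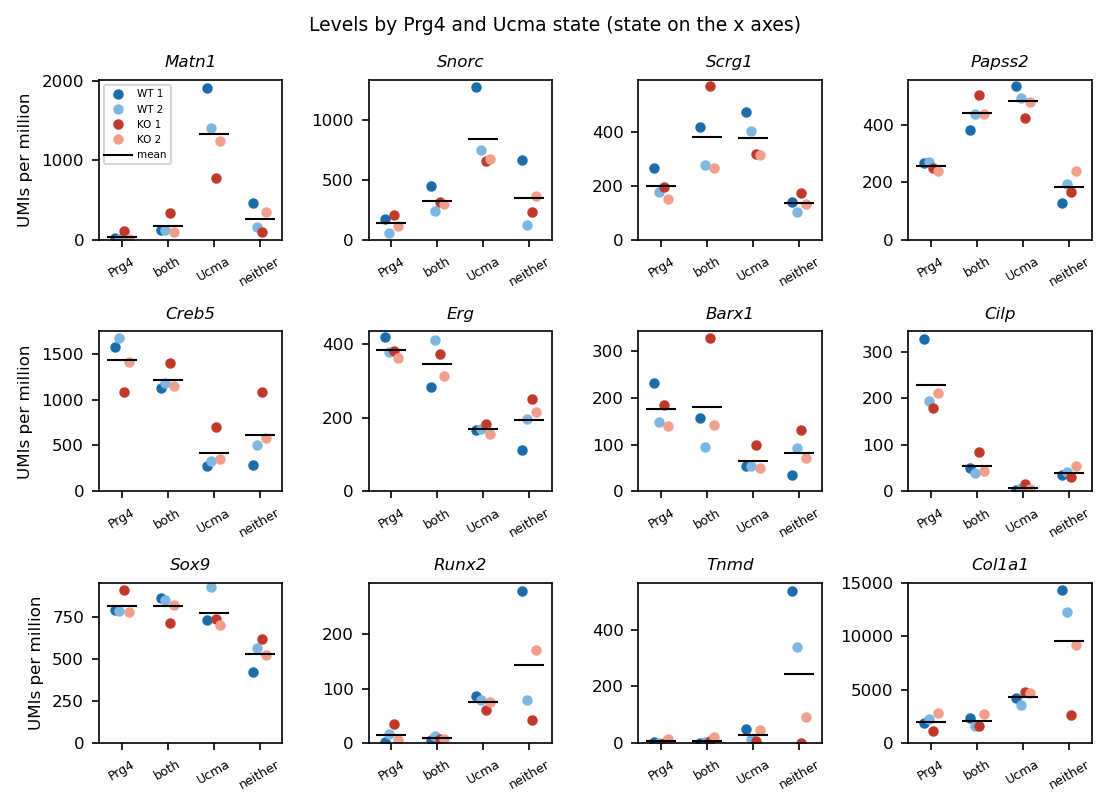
CPM of 12 genes (y axes, each from 0) in Prg4-type, both, Ucma-type and neither cells, with a point for each library and a line at the mean of the 4. *Creb5*, *Erg* and *Barx1* in cells with both genes are near the Prg4-type level, *Scrg1* and *Papss2* near the Ucma-type level, and *Runx2*, *Tnmd* and *Col1a1* have their highest means in cells with neither.

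WT and KO libraries were then compared. Chondrocyte-like cells made up 3.31% and 5.65% of kept cells in the WT libraries (mean 4.48% ± 1.65, SD, n = 2) and 0.795% and 5.89% in the KO libraries (mean 3.34% ± 3.60, SD, n = 2). The difference of −1.14 percentage points lay within the spread of the KO libraries, which spanned the WT values. It had a p of 1 by the exact two-sided permutation test, and 4 libraries cannot give a p below 0.333. The difference was 1.41 without KO replicate 1 and 0.03 without WT replicate 2.

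Among chondrocyte-like cells, the share of Prg4-type cells was 19.6% ± 2.21 in WT and 21.4% ± 0.603 in KO (SD, n = 2 each), with an exact permutation p of 0.667. The share of Ucma-type cells was 36.5% ± 4.51 and 36.2% ± 5.80 (SD, n = 2 each), with an exact permutation p of 1. Neither difference exceeded the spread between libraries. Within-batch values could not be computed, since no batch is named and the sex-linked transcripts of KO replicate 2 set apart 1 library of 1 genotype.

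No gene passed in the comparison of KO with WT over all chondrocyte-like cells. Of 12532 genes tested with edgeR, 0 (0%) passed an adjusted p of 0.05, and DESeq2 called 0 as well. At an unadjusted p under 0.05 there were 332 (2.65%), of which 173 were higher and 159 lower in KO. The libraries of the genotypes did not overlap for 3773 genes (30.1%). Genes at these limits are given below as values.

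Cartilage matrix genes were lower in KO by point estimate, with no call. The 4 tested cartilage collagens that were not part of the rule had a log2 difference below 0, with a median of −0.19, against 0.00 over all tested genes. For *Col2a1*, whose 4 values are given above, the groups overlapped. *Acan* stood at 1331 and 1148 CPM in WT and 1115 and 1111 CPM in KO. Of 21 matrix proteins and proteoglycans outside the rule, 17 were below 0, with a median of −0.20. *Matn3* had 504 and 476 CPM in WT and 218 and 387 CPM in KO, without overlap. *Sox9* had 708 and 775 CPM in WT and 745 and 692 CPM in KO, with overlap.

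Of the other lists, some were lower in KO by point estimate and some were close to the median of all genes. The 13 tested genes of resting and proliferating growth cartilage outside the rule had a median of −0.26, with 10 below 0. The 9 osteoblast and perichondrium genes had a median of −0.26 and the 13 Wnt genes −0.17, with no call. The 13 tested chondrogenic factors had a median of −0.06, the 10 hedgehog and PTHrP genes −0.03, the 24 BMP and TGF-beta genes −0.05 and the 21 articular and joint genes 0.04. The 28 cell cycle genes had a median of 0.09, with 23 above 0. Of 7 tested tenocyte genes 6 were below 0, with a median of −0.82. *Tnmd* had 126 and 113 CPM in WT and 4.03 and 46.0 CPM in KO. Lists of other cell types, whose sums were highest in KO replicate 2 as given above, had medians of 1.94 for 4 myogenic, 3.25 for 3 mast cell and 3.70 for 3 erythroid genes.

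The 3 genes of smallest p in each direction, with at least 10 CPM and no overlap of the genotypes, were *Ccl2*, *Celf2* and *Meis2* (higher in KO) and *C1qtnf3*, *Fam155a* and *Crip1* (lower). *Meis2*, a homeobox gene of limb patterning, had 35.9 and 20.5 CPM in WT and 91.5 and 63.6 CPM in KO, a log2 difference of 1.41 (SE 0.28, unadjusted p = 0.00056 by edgeR, adjusted p = 1.00). *Celf2*, which encodes an RNA-binding protein, had 58.2 and 48.1 CPM in WT and 110 and 90.1 CPM in KO, a log2 difference of 0.88. The chemokine gene *Ccl2* had 3.5 and 5.6 CPM in WT and 13.4 and 19.5 CPM in KO. *C1qtnf3* had 283 and 253 CPM in WT and 51.1 and 136 CPM in KO, a log2 difference of −1.33 (SE 0.28).

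These genes are also used by other cells of the muscle. *C1qtnf3* averaged 508 ± 40.4 CPM in tenocyte-gated cells and 181 ± 107 CPM in chondrocyte-like cells (SD, n = 4), and *Tnmd* was lower in the same KO libraries. *Ccl2*, *Celf2* and *Meis2* averaged 101, 760.4 and 76.8 CPM in the other kept cells, above the 10.5, 76.7 and 52.9 CPM of chondrocyte-like cells. Among the gated groups, *Ccl2* was highest in macrophages, with a mean of 1257 CPM. The part of such transcripts in these differences was not tested.

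These calls changed with the fit. With the replicate number as a block 18 genes passed, among them *Ccl2*, *Celf2*, *Meis2* and *C1qtnf3* (adjusted p = 0.0216, 0.0122, 0.000353 and 0.00813), although the numbers were not shown to pair the libraries. With 1 library left out, 26 genes passed without WT replicate 1, 49 without KO replicate 1, 41 without KO replicate 2 and 0 without WT replicate 2, where the remaining library of a genotype is taken to vary like the others. *C1qtnf3* was also lower in Prg4-type than in Ucma-type cells, as given above, and in Ucma-type cells alone it had 482 and 468 CPM in WT and 91.8 and 247 CPM in KO. With Ucma-type cells alone, 0 of 10250 genes passed.

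**Figure D5:**
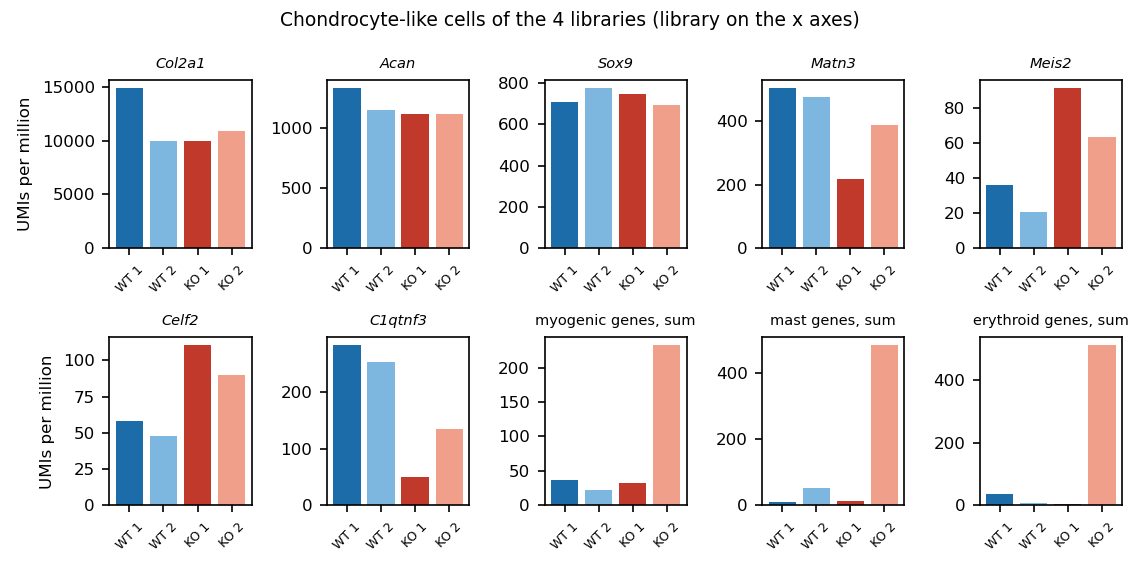
CPM in the chondrocyte-like cells of each library (bars, axes from 0) for 7 genes and the summed marker genes of 3 other cell types. *Meis2* and *Celf2* are higher and *C1qtnf3* lower in both KO libraries, *Col2a1* and *Sox9* overlap, and the marker sums are high only in KO replicate 2.

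Whether the KO effect differed between Prg4-type and Ucma-type cells was tested as an interaction over 9818 genes, and 2 passed (0.0204%). Both are genes of immune cells rather than cartilage. *Cma1* had 6.45, 4.18, 11.6 and 472 CPM in Prg4-type cells and 2.14, 3.63, 0 and 4.84 CPM in Ucma-type cells. *Cma1* is a mast cell gene. *Fcer1g*, which encodes a chain of the IgE receptor of mast cells and is also used by macrophages (mean 2663 CPM in macrophage-gated cells), had 2.15, 3.13, 0 and 44.5 CPM against 3.57, 20.2, 0 and 2.23 CPM. The high value in each was that of Prg4-type cells in KO replicate 2, where 530 *Cma1* UMIs lay in 8 cells and 203 of them in 1 cell. No gene passed under the stricter member rule, or when cells holding markers of other types were left out. *Cma1* is 1 of the markers used there, so its own loss was fixed in advance.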

How the data were processed

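The libraries were made with the Chromium Single Cell 3′ v3 kit from trypsin-digested leg muscle after lysis of red blood cells. The deposited files hold raw UMI counts per gene and cell, which the authors made with Cell Ranger 7.2.0 against mm10, per the submitters' notes; no normalization had been applied. The cell filter was that of the study: 1000 to 6000 genes, between 1000 and 25000 UMIs, and a mitochondrial share below 8%. Doublets were not called by a dedicated tool. Instead, members with a UMI of 6 markers of other types were left out as an alternative, which left 1220 of 1438.

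Counts were summed per library, or per library and state, and tested with edgeR 4.0.16 in R 4.3.3 (TMM, filterByExpr, quasi-likelihood F test, Benjamini-Hochberg adjustment over all genes tested); fold changes are on its log2 scale. DESeq2 1.42.0 was an alternative, as were RLE factors, other gene and cell filters, a stricter member rule, other state thresholds, thinned cells and each library left out. Only the edgeR fits were checked on simulated counts, which gave every gene the same dispersion, and DESeq2 was not. Counting used numpy 2.4.6, scipy 1.17.1 and pandas 2.3.3. Intervals and limits cover counting error only. Reads of overlapping genes and near-identical copies, such as *Hba-a1* and *Hba-a2*, may not be told apart.

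The replicate numbers were checked for pairing. Deviations of replicate 1 of WT and KO from their genotype means correlated at 0.124 over 12532 genes. With 2 libraries per genotype, replicate 2 gives the same value by construction, so this single contrast cannot decide on a pairing. Although the fetuses are described as littermates, no source says that a number marks a litter or day. The replicate numbers were therefore not taken to pair the libraries. The members and gene lists were chosen with earlier results of these data known. Genes were named from the lists and, outside them, by the size of the difference or by p among genes above a CPM minimum with 1 direction in every library, and the 15 leading genes by the lowest ratio among genes with at least 50 CPM in every library. Coordinates are from the GENCODE annotation of GRCm38, the assembly named mm10, in which 348 of 348 gene IDs looked up were found.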

Additional observations from a re-analysis of the deposited data

Results flagged for a closer look

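2 genes had a KO effect that differed between Prg4-type and Ucma-type cells by the test of the interaction itself (edgeR, 9818 genes). *Cma1* differed by 5.92 on the log2 scale (SE 0.84, adjusted p = 0.0133) and *Fcer1g* by 6.55 (SE 0.99, adjusted p = 0.0214). *Cma1* is a mast cell gene, and *Fcer1g* is used by mast cells and macrophages. The high value of each was that of Prg4-type cells in KO replicate 2, and the 5 mast cell genes summed to 484 CPM in the chondrocyte-like cells of that library against 9.22 to 51.4 CPM in the other three. With cells holding markers of other types left out, 0 genes passed. As *Cma1* is 1 of these markers, its own loss there was fixed in advance.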

How the results depend on the processing

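For KO against WT, where 0 genes passed, 99 passed with no gene filter, 1 under the stricter member rule, 18 with the replicate block, and 0 to 49 with 1 library left out. WT and KO fetuses were littermates, but no source says what the replicate numbers mark, so the block may not reflect a pairing. For Prg4-type against Ucma-type cells (1309 genes), DESeq2 called 713, all among the 1309, thinned cells gave 582 of 4951 genes tested, and leaving out 1 library gave 697 to 1511. For the interaction (2 genes), 25 passed with no gene filter, 1 with DESeq2, 0 under the stricter rule, 1 with the looser cell filter, 0 without cells holding markers of other types, 4 with a state threshold of 1 UMI, and 8 to 59 with 1 library left out. Fewer genes were tested with thinned cells; otherwise the cause was not tested.

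The KO minus WT difference in the share of chondrocyte-like cells ranged from −3.69 to 1.41 percentage points with 1 library left out, and was 0.03 without WT replicate 2. For Ucma-type cells the range was −4.47 to 3.73, with 2.82 without WT replicate 1, and the value was 2.56 without cells holding markers of other types. For Prg4-type cells the range was 0.16 to 3.28, and the difference was −2.31 with a threshold of 1 UMI. *Sox9* between the states turned from −0.01 to 0.00588 with RLE factors, 0.01004 with DESeq2, 0.0413 under the stricter rule, 0.0225 without cells holding markers of other types, 0.0863 at 1 UMI and 0.0051 at 5 UMIs, and ranged from −0.0585 to 0.111 with 1 library left out (0.111 without WT replicate 2), none of which passed. Of the 89 genes named between the states, 14 lost their call under at least 1 alternative, and *Sox9* alone changed sign. KO replicate 1, with 78 cells, limits the precision of each comparison, most of all for Prg4-type cells, of which it had 17.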

Other observations

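Cells in cycle were found in every library. A UMI of *Mki67* or *Top2a*, both genes of dividing cells, was present in 25.5%, 29.9%, 25.6% and 29.2% of the chondrocyte-like cells of WT replicates 1 and 2 and KO replicates 1 and 2, and in 18.1%, 20.2%, 21.8% and 20.4% with each cell thinned to 2000 UMIs. By state, the thinned share was 19.6%, 9.18%, 35.3% and 15.7% in Prg4-type cells and 20.5%, 26.0%, 36.0% and 25.5% in Ucma-type cells. It was lower in Prg4-type cells of each library, by little in WT replicate 1 and KO replicate 1, the latter with 17 Prg4-type cells. In endothelial-gated cells the thinned share was 27.5% to 35.0%. The difference between the states was not tested.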
